A study of Mus musculus with 12 samples.

Results

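The AP-1, Myc and immediate early genes examined here were Jun, Junb, Jund, Fos, Fosb, Fosl2, Myc, Ier2, Ier3 and Egr1, 10 of the 18193 genes that the array measured with a probeset naming 1 gene alone. They were followed in the liver of mice given tunicamycin (TM), an antibiotic that blocks N-linked glycosylation and so loads the endoplasmic reticulum (ER) with unfolded protein. The genes were listed with the difference between Atf6a-/- and wild-type animals under TM already known, so that difference is given below as a description with no test. Each member was taken through every probeset that the platform annotation gave to it alone, 13 probesets in all, and the brightest one stood for the gene.

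There were 4 groups of 3 animals, with 1 Affymetrix mouse whole-genome array per animal: Atf6a-/- animals given TM, wild-type animals given TM, Atf6a-/- animals given vehicle and wild-type animals given vehicle. The Atf6a-/- animals lack the transcription factor ATF6 alpha in the whole body, not in hepatocytes alone. TM was injected into the peritoneum at 2 mg/kg, the vehicle was 150 mM dextrose, and livers were taken after 8 h from animals that had been without food for the last hours, treated and control alike. Sex and age varied within the groups, and 1 array of each group carried Y-linked signal. All values are log2 intensities after robust multi-array averaging (RMA), in which a difference of 1 is a doubling, and in whole liver a change in the RNA of a cell type and a change in the number of its cells cannot be told apart.

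AP-1 is a dimer of basic leucine zipper proteins in which a Jun protein pairs with a Fos protein, with another Jun protein or with an ATF family member. Several of its genes, Jun and Fos among them, belong with Myc, Egr1, Ier2 and Ier3 to the immediate early class. Transcription of that class can start within minutes of a stimulus without new protein being made. Jun proteins are further activated by the stress kinase JNK. In the liver, Jun, Fos and Myc are best known for their early induction when hepatocytes re-enter the cell cycle after tissue loss.

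The 250 bases before the annotated start (RefSeq, build GRCm38.p6) were at hand for 7 of the 10 members, and 4 are printed because these AP-1 subunits had unlike values under TM: Jun and Jund were high, Junb was not, and Fos lay between. The capitals mark matches to the motifs searched, on either strand: TGACATCA and TTACCTCA (the proximal and distal AP-1/ATF sites known from the Jun promoter), TGANTCA (the TPA response element), TGACGTCA and its part TGACGT (cAMP response element), CACGTG (the E-box that Myc with Max binds), CCAAT, the ER stress response element (CCAAT and CCACG with 9 bases between them, so that it contains CCAAT) and the CArG box of serum response factor.
Jun (chr4:95052223-95052472, minus strand): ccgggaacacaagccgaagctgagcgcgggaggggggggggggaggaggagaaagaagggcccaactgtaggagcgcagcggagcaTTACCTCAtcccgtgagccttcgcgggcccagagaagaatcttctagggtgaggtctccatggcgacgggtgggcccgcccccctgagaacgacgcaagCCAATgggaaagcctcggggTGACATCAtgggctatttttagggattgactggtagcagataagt
Jund (chr8:70697489-70697738, plus strand): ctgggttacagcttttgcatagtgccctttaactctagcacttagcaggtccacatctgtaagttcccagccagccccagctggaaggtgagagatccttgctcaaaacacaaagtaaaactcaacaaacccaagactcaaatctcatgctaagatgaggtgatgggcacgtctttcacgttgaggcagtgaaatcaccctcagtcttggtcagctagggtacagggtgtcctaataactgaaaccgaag
Junb (chr8:84978749-84978998, minus strand): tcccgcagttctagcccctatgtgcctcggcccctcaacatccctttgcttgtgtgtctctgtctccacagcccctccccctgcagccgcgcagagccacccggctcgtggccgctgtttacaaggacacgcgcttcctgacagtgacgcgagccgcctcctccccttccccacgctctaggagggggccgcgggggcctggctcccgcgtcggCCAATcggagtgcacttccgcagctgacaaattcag
Fos (chr12:85473640-85473889, plus strand): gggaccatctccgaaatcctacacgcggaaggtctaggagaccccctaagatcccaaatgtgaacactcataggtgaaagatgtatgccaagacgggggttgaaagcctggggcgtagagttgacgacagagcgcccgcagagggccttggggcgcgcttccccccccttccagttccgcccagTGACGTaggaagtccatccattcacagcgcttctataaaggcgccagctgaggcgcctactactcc

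The Jun window held TGACATCA beginning 45 bases before the start, TTACCTCA at 164 bases and CCAAT at 65 bases. TGACATCA was in 2.93% and TTACCTCA in 0.728% of all 32851 windows of the same length, and CCAAT was in 33.8% of them. Junb held only CCAAT, at 36 bases, and Fos only TGACGT, at 66 bases, which 6.47% of all windows held. Jund, Fosb and Fosl2 held no match to any of these motifs, and Ier3 held CCAAT at 244 and 175 bases. TGANTCA (6.75% of all windows), TGACGTCA (1.55%), the E-box (6.02%), the ER stress response element (0.113%) and the CArG box (1.47%) had no match in the 7 windows. A match to letters is a description of the sequence and not of binding.

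The treatment and the genotype were checked first. Ddit3, which encodes the ER stress factor CHOP, was higher by 6.13 in Atf6a-/- livers and by 6.79 in wild-type livers on the log2 scale (3.61 and 4.32 over the mean of its probesets), and all 9 of the ER stress genes used as a check were called higher in both genotypes. Trib3, a pseudokinase gene induced by CHOP, was higher by 6.30 in Atf6a-/- and by 5.10 in wild-type livers, and Hspa5, the chaperone BiP, by 1.45 in Atf6a-/- and by 1.88 in wild-type livers. Creld2, a known ATF6 alpha target, was higher by 1.96 in Atf6a-/- livers and by 4.87 in wild-type livers. Atf6 itself averaged 10.15 in Atf6a-/- and 10.97 in wild-type livers after TM, and 7.33 in Atf6a-/- and 9.04 in wild-type livers after vehicle, so signal remained in Atf6a-/- arrays, and where its probeset lies relative to the deleted part was not analysed here. Correlations between arrays ran between 0.958 and 0.996. Marker levels were summed per array as linear intensities and the sum was put on the log2 scale, so the brightest markers count most. The 6 measured hepatocyte markers came to between 17.04 and 17.10 in every animal. The 7 Kupffer cell and macrophage markers came to medians of 12.81 (12.35 to 12.93) in Atf6a-/- TM, 13.03 (12.90 to 13.10) in wild-type TM, 13.46 (12.86 to 13.50) in Atf6a-/- vehicle and 13.63 (12.78 to 13.65) in wild-type vehicle livers. Over 44 markers of 9 cell types, TM was called to raise 2 (Tat and Lyve1) and lower 7 (Adgre1, Csf1r, Marco, Lrat, Krt19, Cd79b and Ms4a1) in Atf6a-/- livers, and to raise 1 (Tat) and lower 3 (Kdr, Lrat and Pdgfrb) in wild-type livers. Of all genes, 13.1% were called higher and 8.21% lower with TM in Atf6a-/- livers, and 8.92% higher and 6.9% lower in wild-type livers. Between Atf6a-/- and wild-type livers under TM, limma called 0 of the 44, with 3 at an unadjusted p under 0.05. Of all genes, 2.89% were called higher and 1.53% lower in that comparison. The part of cell composition in the members' values was not tested.

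TM raised Jun, Jund and Myc in Atf6a-/- livers, and Jun and Myc in wild-type livers, and lowered Ier2 in wild-type livers. Under TM these same 4 genes lay 0.98 to 2.05 log2 units higher in Atf6a-/- than in wild-type livers, and in vehicle livers no member differed by more than 0.34. Fos was high in Atf6a-/- TM livers without passing the test, and Junb, Fosb, Fosl2, Ier3 and Egr1 were not called in either genotype. The tests of TM against vehicle use the TM arrays on which the genes were chosen, so their calls and p-values for the members are a description. The comparison of vehicle livers uses none of those TM arrays.

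**Figure D1:**
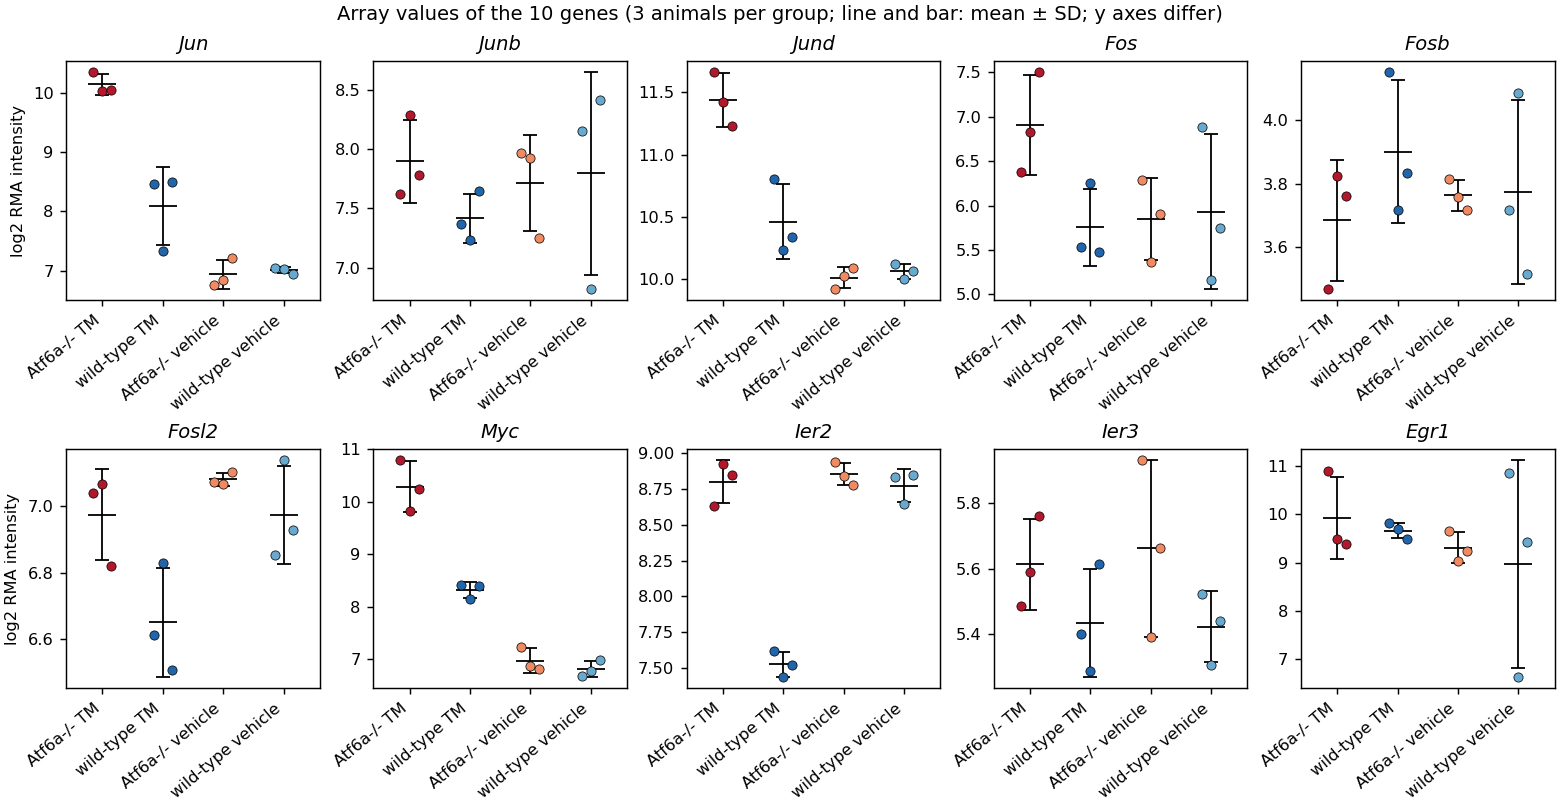
Level of each gene on every array, as log2 RMA intensity (y axis, a scale of its own per panel), in Atf6a-/- TM, wild-type TM, Atf6a-/- vehicle and wild-type vehicle livers; points are animals and the line with bars is the mean ± SD of 3. Jun, Jund, Myc and Fos stand highest in Atf6a-/- TM livers, Ier2 is low only in wild-type TM livers, and Egr1 in wild-type vehicle livers spreads between 6.63 and 10.86.

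Jun encodes the founding AP-1 subunit and a direct substrate of JNK. Its level was 10.35, 10.03 and 10.05 in Atf6a-/- TM livers and 8.46, 7.34 and 8.49 in wild-type TM livers. In vehicle livers it was 6.76, 6.84 and 7.22 in Atf6a-/- animals and 7.05, 7.03 and 6.95 in wild-type animals. No Atf6a-/- TM value reached down to a wild-type TM value, and every TM value lay above every vehicle value, although the second wild-type TM animal, at 7.34, came close. TM raised Jun by 3.21 (SE 0.25, 9.23-fold, adjusted p = 2.37e-06, limma) in Atf6a-/- livers and by 1.09 (SE 0.25, 2.12-fold, adjusted p = 0.00853) in wild-type livers. The wild-type call was lost without the 4 arrays that carried Y-linked signal (0.92, limma adjusted p = 0.0603) and in the methods' t-test after adjustment.

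The other Jun probeset gave the same picture on a smaller range. It read 9.77, 9.04 and 9.45 in Atf6a-/- TM livers, 8.08, 7.41 and 8.13 in wild-type TM livers, 6.94, 6.65 and 7.08 in Atf6a-/- vehicle livers and 6.69, 6.78 and 6.88 in wild-type vehicle livers. Its TM response was 2.53 (SE 0.21, adjusted p = 3.37e-06) in Atf6a-/- and 1.09 (SE 0.21, adjusted p = 0.00256) in wild-type livers. Between genotypes under TM the probesets differed by 2.05 and 1.55, both higher in Atf6a-/-.

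Junb and Jund encode the other Jun proteins, and they parted under TM. Jund was 11.67, 11.42 and 11.23 in Atf6a-/- TM livers, 10.80, 10.24 and 10.34 in wild-type TM livers, 9.92, 10.03 and 10.09 in Atf6a-/- vehicle livers and 10.12, 10.003 and 10.06 in wild-type vehicle livers. The order of groups was thus that of Jun, with no overlap between Atf6a-/- TM, wild-type TM and vehicle livers, and with the vehicle groups overlapping each other. Jund rose by 1.43 (SE 0.15, 2.69-fold, adjusted p = 1.78e-05) in Atf6a-/- livers. In wild-type livers its difference of 0.40 (95% interval 0.08 to 0.72, adjusted p = 0.0855) did not pass. The other Jund probeset lay below the array median on all 12 arrays and read -0.24 (SE 0.082, adjusted p = 0.0435, under 1.5-fold) in Atf6a-/- and 0.018 in wild-type livers, so averaging both probesets lowered the Atf6a-/- response of Jund to 0.59.

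Junb was 7.62, 8.29 and 7.78 in Atf6a-/- TM livers and 7.37, 7.23 and 7.64 in wild-type TM livers, and 7.97, 7.92 and 7.25 in Atf6a-/- vehicle livers and 8.15, 6.82 and 8.41 in wild-type vehicle livers. All groups overlapped. The TM difference was 0.18 (95% interval -0.57 to 0.94, adjusted p = 0.729) in Atf6a-/- and -0.38 (95% interval -1.13 to 0.37, adjusted p = 0.541) in wild-type livers. The wild-type value rested on the second wild-type vehicle animal, at 6.82, without which it was -0.87 with an adjusted p of 0.0222.

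Among the Fos proteins, which pair with Jun proteins but not with themselves, Fos itself was the only one with a difference over 1.5-fold. Fos was 6.38, 6.83 and 7.51 in Atf6a-/- TM livers, 5.54, 6.26 and 5.47 in wild-type TM livers, 6.29, 5.37 and 5.91 in Atf6a-/- vehicle livers and 6.88, 5.17 and 5.75 in wild-type vehicle livers. The Atf6a-/- TM animals lay above the wild-type TM and Atf6a-/- vehicle animals but overlapped with wild-type vehicle. The TM difference in Atf6a-/- livers, 1.05 (95% interval 0.17 to 1.94, adjusted p = 0.0745), did not pass. When 1 array at a time was left out, this difference ran from 0.75 to 1.31, with a limma adjusted p of up to 0.255. It did pass without the first or the second wild-type vehicle animal, with adjusted p of 0.0295 and 0.0421. Neither animal belongs to this comparison, so leaving it out changed the variance in the fit and not the difference. In wild-type livers the TM difference was -0.18 (95% interval -1.06 to 0.71, adjusted p = 0.837).

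Fosl2, which encodes the Fos-related protein FRA2, was 7.04, 7.07 and 6.82 in Atf6a-/- TM livers, 6.61, 6.83 and 6.51 in wild-type TM livers, 7.07, 7.07 and 7.10 in Atf6a-/- vehicle livers and 6.85, 7.14 and 6.93 in wild-type vehicle livers. The TM animals lay below the vehicle animals of their own genotype, but in Atf6a-/- livers this was a near tie (7.0657 against 7.0662). The differences were -0.11 (adjusted p = 0.514) in Atf6a-/- and -0.32 (95% interval -0.57 to -0.08, adjusted p = 0.0652) in wild-type livers, and neither passed. Its other probeset, on which the Atf6a-/- groups overlapped, read 0.060 in Atf6a-/- and -0.30 in wild-type livers. Fosb stayed between 3.47 and 4.15 on the 12 arrays, below the array median on each of them, so little can be read from its differences of -0.078 in Atf6a-/- and 0.13 in wild-type livers.

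Myc, whose product pairs with Max on E-boxes and drives ribosome production and growth, had the largest response of the 10 genes in both genotypes. It was 10.80, 9.83 and 10.24 in Atf6a-/- TM livers, 8.41, 8.15 and 8.39 in wild-type TM livers, 7.24, 6.87 and 6.81 in Atf6a-/- vehicle livers and 6.68, 6.77 and 6.99 in wild-type vehicle livers. As for Jun, the groups stepped down from Atf6a-/- TM to wild-type TM to vehicle with no overlap, and the vehicle groups overlapped each other. TM raised Myc by 3.32 (SE 0.20, 9.98-fold, adjusted p = 5.16e-07) in Atf6a-/- livers and by 1.502 (SE 0.20, 2.83-fold, adjusted p = 0.000231) in wild-type livers. Under TM it lay 1.97 higher in Atf6a-/- livers, at a mean of 10.29 ± 0.49 against 8.32 ± 0.15 in wild-type livers (SD, n = 3 each).

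Ier2, an immediate early gene that encodes a small nuclear protein, had the opposite form. It was 8.63, 8.93 and 8.85 in Atf6a-/- TM livers and 7.62, 7.44 and 7.52 in wild-type TM livers, against 8.94, 8.84 and 8.78 in Atf6a-/- vehicle and 8.83, 8.64 and 8.85 in wild-type vehicle livers. Only the wild-type TM animals stood apart, below all others, while Atf6a-/- TM animals overlapped both vehicle groups. Ier2 fell by 1.25 on the log2 scale (SE 0.10, adjusted p = 4.43e-06) in wild-type livers, and differed by -0.052 (95% interval -0.27 to 0.17, adjusted p = 0.741) in Atf6a-/- livers. Its higher level in Atf6a-/- than in wild-type livers under TM, by 1.28, therefore went with a fall in wild-type livers, whereas those of Jun, Jund and Myc went with a larger rise in Atf6a-/- livers.

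Ier3, which encodes a regulator of cell survival, lay between 5.29 and 5.93 on the 12 arrays with all groups overlapping. Its TM difference was -0.050 (95% interval -0.35 to 0.25) in Atf6a-/- and 0.011 (95% interval -0.29 to 0.31) in wild-type livers. Egr1, a zinc finger factor, was 10.90, 9.49 and 9.38 in Atf6a-/- TM livers, 9.81, 9.69 and 9.49 in wild-type TM livers, 9.66, 9.04 and 9.24 in Atf6a-/- vehicle livers and 10.86, 6.63 and 9.44 in wild-type vehicle livers. The spread of the wild-type vehicle animals (SD 2.15) exceeded both TM differences, 0.61 (95% interval -1.07 to 2.30, adjusted p = 0.590) in Atf6a-/- and 0.69 (95% interval -0.99 to 2.38, adjusted p = 0.632) in wild-type livers. Without the second wild-type vehicle animal, which was also the lowest of its group for Junb and Fos, the wild-type difference of Egr1 turned to -0.48.

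**Figure D2:**
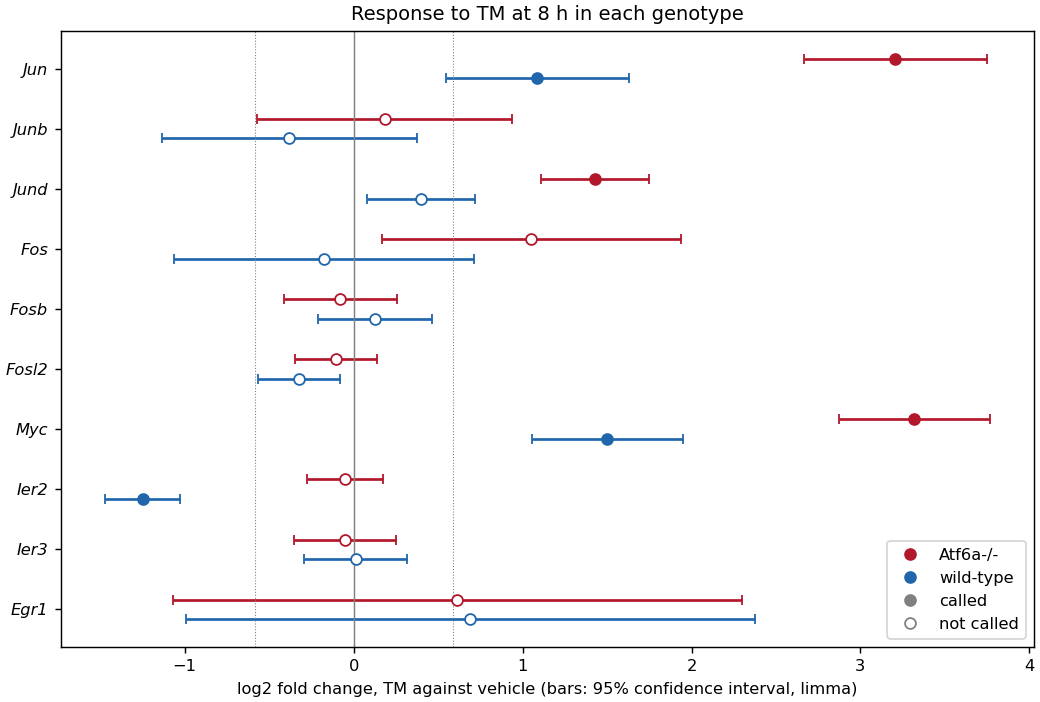
Difference between TM and vehicle livers on the log2 scale (x axis) for each gene, Atf6a-/- in red above wild-type in blue; bars are 95% confidence intervals from limma, filled points are called and dotted lines mark 1.5-fold. Jun and Myc are filled in both genotypes, Jund in Atf6a-/- alone and Ier2 in wild-type alone, and the intervals of Egr1 span more than 3 log2 units.

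Over all 10 genes, 3 were called higher and 0 lower with TM in Atf6a-/- livers, where 13.1% of all genes were higher and 8.21% lower, and 2 were called higher and 1 lower in wild-type livers, where 8.92% of all genes were higher and 6.9% lower. The counts share the TM arrays on which the genes were chosen, so they stand beside these shares as a description. The median member differed by 0.40 in Atf6a-/- and by 0.070 in wild-type livers, against -0.10 and -0.060 for all genes. Every TM animal lay above every vehicle animal of its genotype for 4 members in Atf6a-/- livers (20.8% of all genes) and for 3 in wild-type livers (16.8%), and below for 1 in Atf6a-/- (29.6%) and 2 in wild-type livers (22.5%). The 1 below in Atf6a-/- livers was Fosl2, by the near tie given above. With 3 animals against 3 an exact permutation test of 1 gene cannot go below p = 0.10, so the calls rest on the fit across all probesets.

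The genotypes differed under TM by a median of 0.73 over the members, against -0.018 over all genes. Of all genes, 2.89% were called higher in Atf6a-/- livers in this comparison. The members were chosen on it, so no call is given for them and nothing is read from that share. Values in Atf6a-/- and wild-type livers did not overlap for Jun, Jund, Myc, Ier2 and Fos, and the difference of Fos was 1.15 (13.4% of all genes lay wholly above), and no member lay wholly below (10.2%). The remaining differences were 0.48 for Junb, 0.32 for Fosl2, 0.26 for Egr1, 0.18 for Ier3 and -0.22 for Fosb. The signed TM difference in Atf6a-/- livers minus that in wild-type livers was 2.12 for Jun, 1.82 for Myc, 1.23 for Fos, 1.20 for Ier2, where the fall was in wild-type livers, and 1.03 for Jund. Of all genes, limma called this signed difference above 0 for 1.06% and below 0 for 0.748%.

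In vehicle livers the members differed between Atf6a-/- and wild-type animals by -0.083 to 0.34, with a median of 0.034 against 0.00064 for all genes. limma called 0 of the 10, as it called 0% of all genes, none had an unadjusted p under 0.05 (lowest 0.109), and the methods' t-test after adjustment also called 0. Atf6, the targeted gene, lay 1.71 lower in Atf6a-/- vehicle livers and was itself not called (limma adjusted p = 0.184). The absence of calls therefore cannot show that the members were alike before stress. No member lay wholly above (4.85% of all genes) or wholly below (3.68%) in Atf6a-/- animals. The intervals were narrow for Jund (-0.37 to 0.27) and Ier2 (-0.14 to 0.30) and wide for Fos (-0.97 to 0.81) and Egr1 (-1.35 to 2.02). Those of Jun (-0.61 to 0.47), Junb (-0.84 to 0.67) and Myc (-0.29 to 0.60) also reached past 1.5-fold. A difference of 1.5-fold before stress could thus have been missed for Jun, Junb, Myc, Fos and Egr1.

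**Figure D3:**
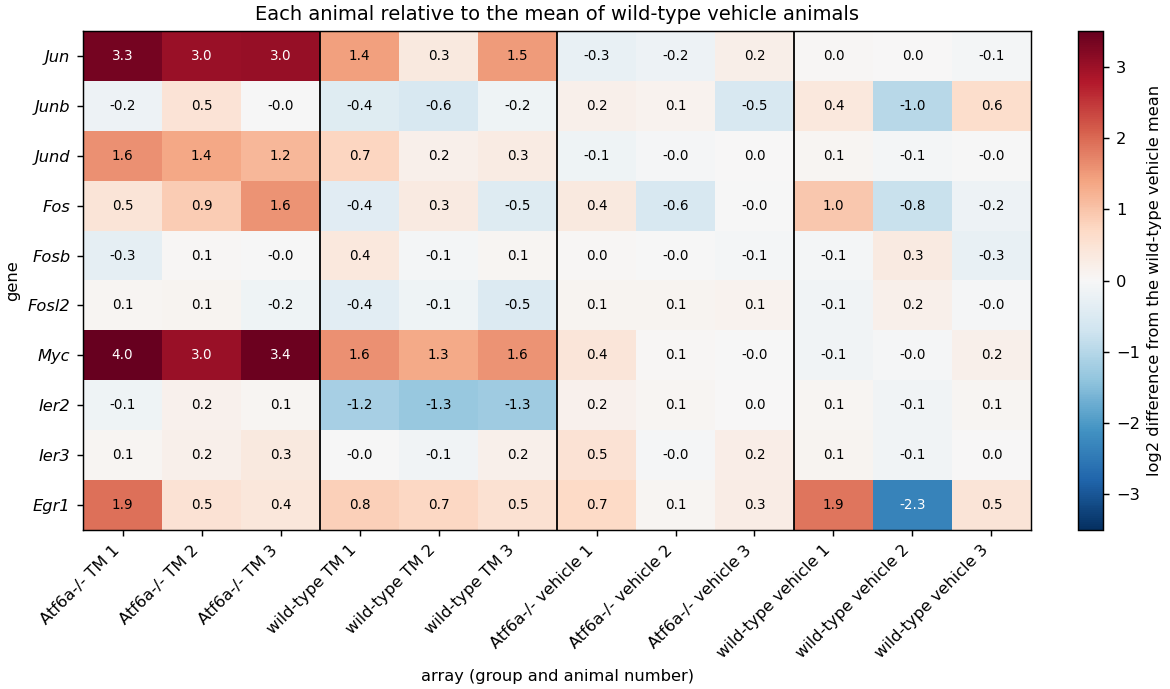
Each animal's log2 difference from the mean of the wild-type vehicle animals (colour and number) for the 10 genes in rows and the 12 arrays in columns. Jun and Myc are at 3.01 to 3.98 in Atf6a-/- TM animals and at 0.33 to 1.60 in wild-type TM animals, Ier2 is at -1.33 to -1.16 in wild-type TM animals, and the second wild-type vehicle animal is low for Egr1, Junb and Fos.

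The other AP-1 and Maf proteins hold further partners of the Jun and Fos proteins, and 10 of the 11 listed genes were measured. Like the members, this list and those below were chosen with earlier results of these data known. Their p-values are given as a description. TM raised Atf3 and Mafk and lowered Maf in both genotypes, and lowered Mafg in wild-type livers. Of the 10, 2 were thus called higher and 1 lower in Atf6a-/- livers, where 13.1% of all genes were higher and 8.21% lower. In wild-type livers 2 were called higher and 2 lower, where 8.92% of all genes were higher and 6.9% lower. Atf3, a stress-induced ATF family member that pairs with Jun, was 12.52, 12.42 and 12.35 in Atf6a-/- TM livers, 11.45, 10.85 and 11.27 in wild-type TM livers, and between 5.20 and 5.93 in vehicle livers. Its rise was 7.13 (SE 0.16, adjusted p = 1.4e-10) in Atf6a-/- and 5.58 (SE 0.16, adjusted p = 9.87e-10) in wild-type livers, and the responses differed by 1.55 (adjusted p = 0.00632). Mafg, a small Maf protein with no activation domain, followed the form of Ier2: it fell by 0.96 (adjusted p = 0.00762) in wild-type livers, differed by -0.074 (adjusted p = 0.829) in Atf6a-/- livers, and lay 1.13 higher in Atf6a-/- under TM (adjusted p = 0.0105, and 0.062 without the second and 0.0552 without the third wild-type TM animal). Mafk rose by 0.88 in Atf6a-/- and by 0.75 in wild-type livers.

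Of the 18 other immediate early transcription factors, 5 were called higher and 1 lower with TM in Atf6a-/- livers (of all genes 13.1% and 8.21%), and 4 higher and 0 lower in wild-type livers (8.92% and 6.9%). Egr2, Egr3, Egr4, Nr4a1, Nr4a2, Nr4a3, Klf2, Klf4 and Klf6 were among those not called in either. Klf10, a zinc finger factor, rose by 2.51 in Atf6a-/- (adjusted p = 0.00107) and by 1.48 in wild-type livers (adjusted p = 0.0361), and the wild-type call was lost when any of 5 arrays was left out (wild-type TM animals 2 and 3, wild-type vehicle animals 1 and 2, Atf6a-/- vehicle animal 2), down to 1.01. Its means were 10.16 in Atf6a-/- TM, 9.78 in wild-type TM, 7.66 in Atf6a-/- vehicle and 8.30 in wild-type vehicle livers. Neither its genotype difference under TM nor its difference in response was called. Ier5, a relative of Ier2, rose by 2.01 in Atf6a-/- and by 1.23 in wild-type livers (1.12 and 0.70 over the mean of its probesets). Per1, a component of the circadian clock, was 9.04, 8.39 and 8.60 in Atf6a-/- TM livers and 9.86, 9.79 and 10.11 in wild-type TM livers, and rose less in Atf6a-/- (0.80, adjusted p = 0.00397) than in wild-type livers (1.99, adjusted p = 7.27e-06). Under TM it lay 1.24 lower in Atf6a-/- (adjusted p = 0.00135), and the difference in response, -1.19 (adjusted p = 0.0371), was lost without any 1 of 10 of the 12 arrays. Cebpb, a basic leucine zipper factor named here after its values were seen, was 12.22, 12.15 and 11.92 in Atf6a-/- TM livers and 11.41, 11.02 and 11.15 in wild-type TM livers (0.90 higher, adjusted p = 0.0093, and 0.0554 without the second wild-type TM animal). In vehicle livers Cebpb also averaged higher in Atf6a-/- animals, at 11.26 against 10.86 in wild-type animals. With TM it rose by 0.84 in Atf6a-/- livers and differed by 0.33 in wild-type livers, and the difference in response was not called.

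The 33 feedback and signalling genes of the immediate early class include phosphatases that switch off MAP kinases, and proteins that destroy short-lived mRNA. With TM, 10 were called higher and 6 lower in Atf6a-/- livers, and 6 higher and 8 lower in wild-type livers, beside shares of all genes of 13.1% and 8.21% in Atf6a-/- and 8.92% and 6.9% in wild-type livers. Under TM 8 of the 33, Dusp4, Dusp8, Gadd45a, Mcl1, Plk3, Tiparp, Zfp36l1 and Zfp36l2, were called higher in Atf6a-/- than in wild-type livers. Of all genes, 2.89% were called higher and 1.53% lower in this comparison. The list's median difference was 0.48 against -0.018 for all genes. Gadd45a, a growth arrest gene, was 10.25, 10.39 and 10.91 in Atf6a-/- TM livers, 8.84, 8.73 and 8.99 in wild-type TM livers and between 5.70 and 6.56 in vehicle livers. It rose by 4.45 (SE 0.21, adjusted p = 8.52e-08) in Atf6a-/- and by 2.64 (SE 0.21, adjusted p = 3.77e-06) in wild-type livers, and the responses differed by 1.81 (adjusted p = 0.0113). Sgk1, a serum-induced kinase, rose by 3.67 in Atf6a-/- and by 2.58 in wild-type livers, and Phlda1 fell by 2.55 in Atf6a-/- and fell by 2.95 in wild-type livers.

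Dusp4, Tiparp and Zfp36l1 are given as examples of the 8, chosen after their values were seen. Dusp4, a nuclear MAP kinase phosphatase, was 6.13, 6.79 and 6.59 in Atf6a-/- TM livers and 5.22, 5.28 and 4.73 in wild-type TM livers, and rose by 1.61 (adjusted p = 6.6e-05) in Atf6a-/- livers against a difference of 0.20 (adjusted p = 0.565) in wild-type livers. The medians of the wild-type TM arrays were 5.00, 5.03 and 5.01, so the signal of Dusp4 in wild-type TM livers was low. Tiparp, an ADP-ribosyltransferase, was 8.61, 8.25 and 8.72 in Atf6a-/- TM livers and 7.60, 7.55 and 7.64 in wild-type TM livers, and rose by 1.18 (adjusted p = 1.57e-05) in Atf6a-/- livers against 0.27 (adjusted p = 0.160) in wild-type livers. Zfp36l1, which promotes the decay of AU-rich mRNA, took the form of Ier2, falling by 0.99 (adjusted p = 0.00138) in wild-type livers and differing by -0.11 (adjusted p = 0.660) in Atf6a-/- livers.

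The MAP kinase and SRF pathway list holds the kinases and cofactors that sit upstream of these genes. Of 18 measured, 2 were called higher and 3 lower with TM in Atf6a-/- livers, where 13.1% of all genes were higher and 8.21% lower, and 0 higher and 3 lower in wild-type livers, where 8.92% were higher and 6.9% lower. Between Atf6a-/- and wild-type livers under TM limma called 0, with 4 at an unadjusted p under 0.05. Of all genes, 2.89% were called higher and 1.53% lower in that comparison. Map2k6, an activator of p38, fell by 1.20 (adjusted p = 0.0223) in Atf6a-/- and fell by 1.80 (adjusted p = 0.00287) in wild-type livers, and the Atf6a-/- call was lost without the third Atf6a-/- TM animal (-0.74) or any 1 of the Atf6a-/- vehicle animals. Map3k5, the kinase ASK1 upstream of JNK, rose by 0.81 (adjusted p = 0.00294) in Atf6a-/- livers and differed by 0.23 in wild-type livers. Elk4 rose by 0.74 in Atf6a-/- livers on its brightest probeset, but by 0.088 over the mean of its probesets, which was not called. Phosphorylation, through which these proteins act, was not measured.

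Myc acts only with Max, and the proteins of the Mxd family compete for Max and repress the same E-boxes. Of the 12 genes of this network, 5 were called higher with TM in each genotype (of all genes 13.1% in Atf6a-/- and 8.92% in wild-type livers), and they were not the same 5: Mga, Mlxip and Mycl were shared, Mlx and Mnt were called in Atf6a-/- livers and Mxd1 and Mxd4 in wild-type livers. Mxd1 was 6.36, 6.55 and 6.42 in Atf6a-/- TM livers and 8.25, 8.19 and 8.32 in wild-type TM livers, against 6.84, 6.73 and 6.79 in Atf6a-/- vehicle and 6.80, 6.68 and 6.96 in wild-type vehicle livers. It stood high only in wild-type TM livers, the mirror image of Ier2. Mxd1 rose by 1.44 (SE 0.09, adjusted p = 7.88e-07) in wild-type livers and differed by -0.34 (adjusted p = 0.017, under 1.5-fold) in Atf6a-/- livers, a difference in response of -1.79 (adjusted p = 5.79e-05). Under TM it lay 1.81 lower in Atf6a-/- than in wild-type livers (adjusted p = 1.08e-06), where Myc lay 1.97 higher. The Mxd1 call under TM was kept in 26 of 27 alternatives (highest adjusted p over them 0.0582).

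Mxd4, named after its values were seen, had the form of Mxd1. It was 7.46, 7.96 and 7.88 in Atf6a-/- TM livers and 8.86, 9.31 and 9.23 in wild-type TM livers, a difference of -1.37 (adjusted p = 0.000467, and -0.84 over the mean of its probesets), and the difference in response was -1.26 (adjusted p = 0.0201, up to 0.0664 when 1 array was left out, above 0.05 without wild-type TM animal 2 or 3, Atf6a-/- vehicle animal 2 or wild-type vehicle animal 3). Mga, a Max partner that also carries a T-box, rose by 1.90 in Atf6a-/- and by 1.09 in wild-type livers and lay 0.98 higher in Atf6a-/- under TM (adjusted p = 0.00702). Over the mean of its probesets these values were 0.98, 0.56 and 0.45, and the last pair was under 1.5-fold. Mycl, a relative of Myc, rose by 1.70 in Atf6a-/- livers. Its rise of 0.86 in wild-type livers (adjusted p = 0.0294) was lost without wild-type TM animal 2 or 3 or wild-type vehicle animal 2 or 3, down to 0.70.

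Of 26 genes known as Myc targets from other cells, 15 were called higher and 3 lower with TM in Atf6a-/- livers (of all genes 13.1% and 8.21%), and 14 higher and 1 lower in wild-type livers (8.92% and 6.9%), with median differences of 0.81 in Atf6a-/- and 0.84 in wild-type livers. All genes had medians of -0.10 in Atf6a-/- and -0.060 in wild-type livers. Nop58, a core protein of box C/D snoRNPs, rose by 3.65 (adjusted p = 2.74e-06) in Atf6a-/- and by 2.65 (adjusted p = 4.51e-05) in wild-type livers, while Cad, which starts pyrimidine synthesis, rose by 1.98 in Atf6a-/- and by 2.98 in wild-type livers. Cdkn1a, the p21 inhibitor of the cell cycle, which Myc is known to repress, rose by 4.15 in Atf6a-/- and by 3.82 in wild-type livers. Under TM Bop1, Dkc1, Rrs1 and Slc3a2 were called higher in Atf6a-/- than in wild-type livers, at 4 of 26 where 2.89% of all genes were, with a list median of 0.25. Dkc1, the pseudouridine synthase dyskerin, named after its values were seen, was 9.34, 8.75 and 9.55 in Atf6a-/- TM livers and 8.39, 8.17 and 8.33 in wild-type TM livers (0.92 higher, adjusted p = 0.00826).

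**Figure D4:**
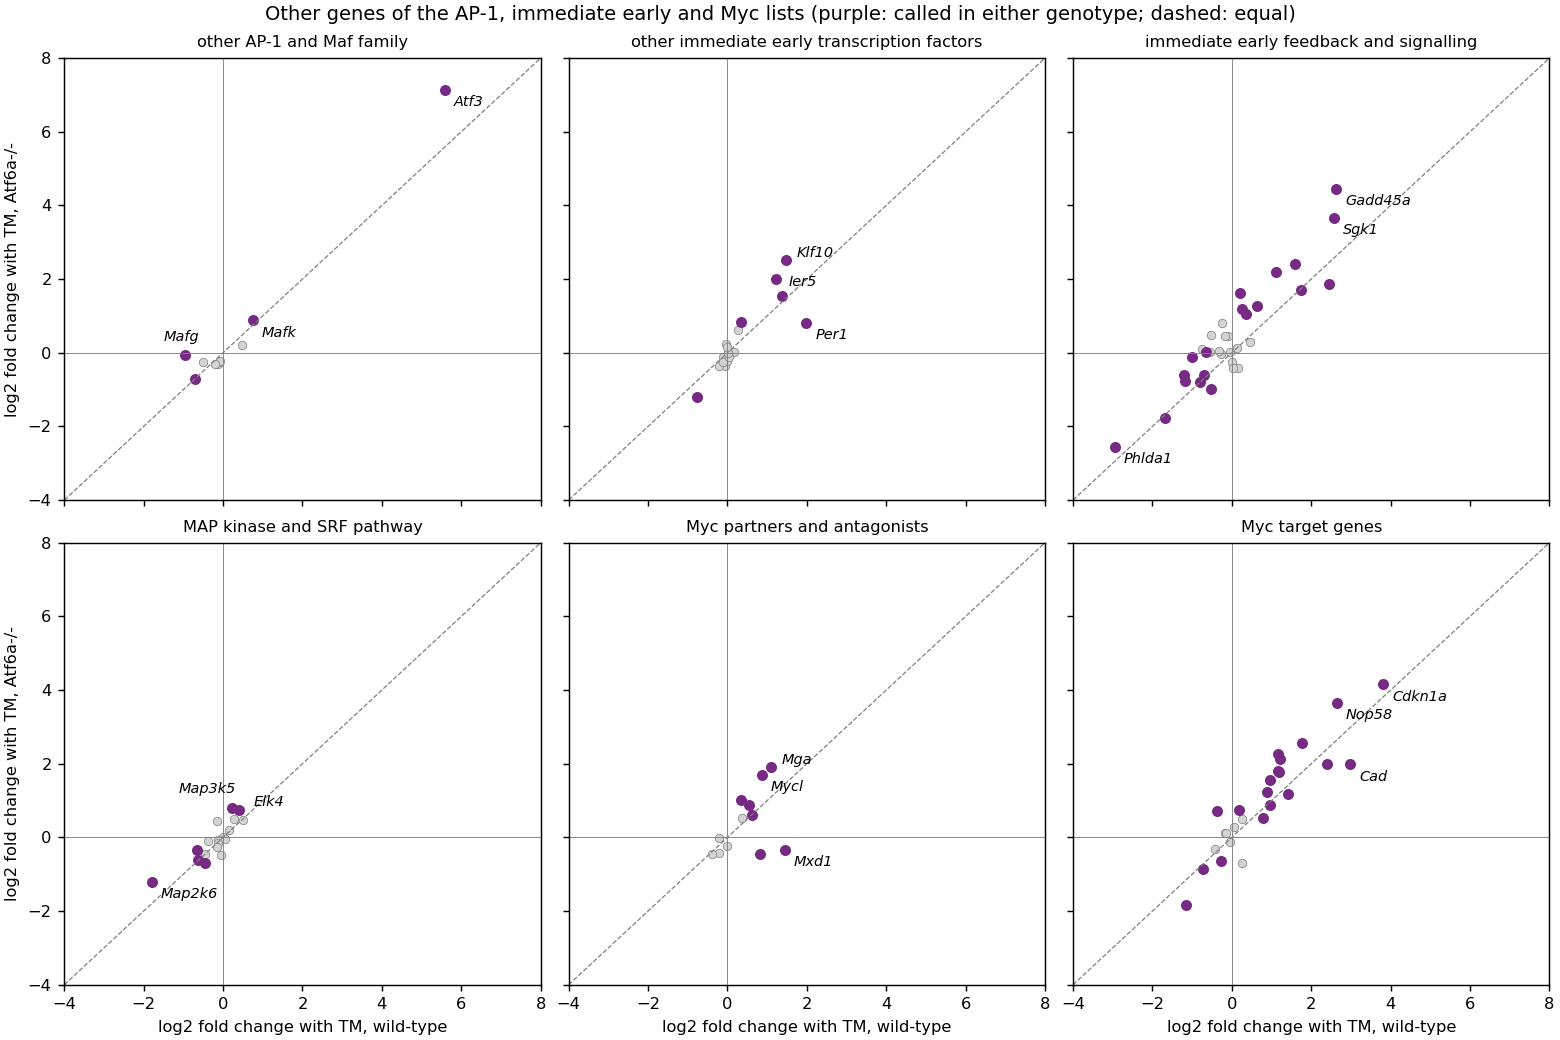
TM response in Atf6a-/- livers (y axis, log2) against that in wild-type livers (x axis, log2) for the genes of the 6 other lists; purple points are called in at least 1 genotype and the dashed line marks equal responses. Atf3 and Gadd45a lie above the line, Per1, Mxd1 and Cad below it, and Map2k6 is low in both genotypes.

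Over the 12 arrays the genes with the pattern most like that of Jun were Wdr3, Zscan12, Nufip1, Plekhh3 and Zfp119b, each with a Pearson r of 0.98 across arrays. For Myc they were Zxdb, Nufip1, Champ1, Neurl4 and Plekhh3, with r between 0.98 and 0.997. Nufip1 and Plekhh3 were on both lists. Zxdb averaged 7.41 in Atf6a-/- TM, 6.54 in wild-type TM, 5.84 in Atf6a-/- vehicle and 5.81 in wild-type vehicle livers, and Plekhh3 averaged 9.16 in Atf6a-/- TM, 7.79 in wild-type TM, 7.03 in Atf6a-/- vehicle and 7.17 in wild-type vehicle livers. These values carry the group differences on which they were ranked and no p is attached to them.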

How the data were processed

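Liver RNA of 12 mice was measured on Affymetrix mouse whole-genome arrays, 1 per animal and 3 per group, grouped by the labels. The submitters' processing notes name affy, RMA and limma, and the deposited log2 values have the form of RMA intensities; the study's methods name a Student's test, run here as an alternative. No source used here gives versions or says whether arrays of a later time point were normalized along with these. RMA sets array distributions alike, and so hides a shift shared by most genes. No scanner intensity, detection call, scan date or slide was used, so background correction and slide could not be varied, and precision is limited by 3 animals per group.

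Of 45101 probesets, 64 controls were left out; 34945 of the other 45037 name 1 gene, 932 several and 9160 none. A gene is its brightest probeset, the one with the highest mean, of those naming it alone. limma 3.58.1 (R 4.3.3) was fitted with 1 mean per group on all 12 arrays and moderated variance, with Benjamini-Hochberg adjustment over all 45037 probesets per contrast. A call needs an adjusted p under 0.05 and over 1.5-fold; SE, intervals and adjusted p are from this fit, which was tested on simulated data. The members and lists were chosen with earlier results of these data known. Besides the members, Hspa5, Ddit3 and Atf6, the text names from each list the 3 called genes with the largest TM response in either genotype, and says where it names others. Promoter motifs were searched on both strands of RefSeq windows. Alternatives were other normalizations, gene summaries, thresholds, tests and covariates, and leaving out arrays.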

Additional observations from a re-analysis of the deposited data

Results flagged for a closer look

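Results were singled out where the signed response to TM differed between the genotypes in limma's test of that difference (adjusted p under 0.05 and over 1.5-fold), which was called above 0 for 1.06% and below 0 for 0.748% of all genes. The members are left out here, since they were chosen on the genotype difference under TM. The other lists were also chosen with earlier results of these data known. Their adjusted p therefore describe these data and are no independent test.

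Among genes of the other lists the response in Atf6a-/- livers minus that in wild-type livers, on the log2 scale, was 1.55 for Atf3, 1.81 for Gadd45a, 1.41 for Dusp4 (adjusted p = 0.0308), 0.911 for Tiparp (adjusted p = 0.0219), 1.00 for Mcl1, an anti-apoptotic relative of Bcl2 (adjusted p = 0.0268, and 0.58 with an adjusted p of 0.247 over the mean of its probesets), and 1.10 for Dkc1 (adjusted p = 0.0460). It was -1.19 for Per1, -1.79 for Mxd1, -1.26 for Mxd4, -2.91 for Creld2 (adjusted p = 0.000465) and -2.18 for Sdf2l1, an ER chaperone cofactor (adjusted p = 0.00754). Dusp4, Tiparp, Mcl1, Mxd4, Dkc1 and Sdf2l1 were named after their values were seen. When 1 array at a time was left out, Atf3, Gadd45a, Mxd1, Creld2 and Sdf2l1 passed each time, while the call was lost for Dusp4 in 9, Tiparp in 6, Mcl1 in 9, Mxd4 in 4, Per1 in 10 and Dkc1 in 11 of the 12 cases, with adjusted p of at most 0.0903, 0.0714, 0.0841, 0.0664, 0.108 and 0.140 in that order of genes.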

How the results depend on the processing

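Of the counts of members called, 261 values under alternatives stayed within 1.5 times the main count and 5 did not. Many of these were counts of 0 that stayed 0, as in vehicle livers, where 0% of all genes were called. The total also holds the comparisons on which the members were chosen, so it does not measure how stable the calls are. Those called higher with TM in wild-type livers numbered 1 under the methods' t-test after adjustment and 1 without the 4 arrays with Y-linked signal, an alternative chosen after seeing the data, as against 2. Those called lower in wild-type livers numbered 2 without these 4 arrays, and 1 to 2 when 1 array at a time was left out (Junb joined Ier2 without the second wild-type vehicle animal), as against 1. Between the genotypes under TM, on which the members were chosen and from which nothing is read, the t-test put 0 members past the limits, as against 4. The share of all genes that the t-test called is not given here, so its counts cannot be set beside such a share. The t-test and the fit on a contrast's own arrays were not run for the difference in response. Named genes of the other lists that were called between the genotypes under TM were also taken through the alternatives. Each lost this call in at least 1 alternative other than leaving out 1 array. Their highest adjusted p over the alternatives ran from 0.0582 (Mxd1 and Creld2) to 0.329 (Mafg), with 0.172 for Atf3 and 0.155 for Gadd45a.

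Jun, Jund, Myc and Ier2 kept the sign of every called response. The Jun difference between genotypes under TM was 1.67 without the second wild-type TM animal, and that of Jund 0.46 over the mean of its probesets. The sign turned for differences that were not called, and in no case was the turned value called. In Atf6a-/- livers Junb was -0.24 without the 4 arrays (-0.049 to 0.32 leaving out 1 array), Ier3 0.073 with cyclic loess (-0.19 to 0.085), Fosb 0.0028 with quantile normalization and 0.0099 with cyclic loess (-0.15 to 0.030), the second Fosl2 probeset -0.0081 centred on Btf3 and Ppia (-0.017 to 0.16), Mafg 0.062 over the mean of its probesets (-0.28 to 0.12) and Mcl1 -0.049 likewise, while Ier2 ran over -0.11 to 0.033 and Zfp36l1 over -0.22 to 0.027 leaving out 1 array. In wild-type livers Egr1 was -0.55 without the 4 arrays (-0.48 to 1.63), Ier3 -0.025 when centred, -0.0083 with array weights and -0.030 without the 4 arrays (-0.079 to 0.084), the second Jund probeset -0.018 when centred (-0.023 to 0.048) and Elk4 -0.051 over the mean of its probesets, while Fosb ran over -0.0011 to 0.29 and Fos over -0.56 to 0.30. Centring moved the median of all genes to -0.17 in Atf6a-/- and -0.096 in wild-type livers.

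Animals with the same number share only that number: deviations of same-numbered animals correlated between -0.48 and 0.39. With the replicate number as a block, calls over all probesets were 7408 as against 7437 for TM in Atf6a-/-, 5416 as against 5429 in wild-type, 1348 as against 1402 between genotypes under TM and 493 as against 557 for the difference in response, and members called higher with TM numbered 3 in Atf6a-/- and 2 in wild-type livers, as without it.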
